A study of Mus musculus with 6 samples.

Results

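The transcripts examined here encode 4 nuclear-encoded subunits of cytochrome c oxidase (Cox4i1, Cox5b, Cox6a2 and Cox8a) and Tfam, the mitochondrial transcription factor A. They were taken as the probes that the platform annotation names with these symbols, which gave 5 probes, 1 per gene, of 223 on a low-density array that names 203 genes. RNA came from the soleus, a slow postural calf muscle, of tenascin-C deficient mice of strain 129/SV. All 6 animals lacked tenascin-C, a matrix glycoprotein, and had borne weight again for 1 day after unloading. They formed 1 group with 1 array each, so no genotype or treatment could be compared. Age, sex and the length of unloading are not given in the sources used here, nor is the way the gene was inactivated. Total RNA from sections of the muscle belly was labelled with a radioactive nucleotide by gene-specific reverse transcription. The labels call the animals biological replicates, and since no animal was measured on more than 1 array, animal and array cannot be told apart.

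Cytochrome c oxidase is the last complex of the mitochondrial respiratory chain and passes electrons from cytochrome c to oxygen while pumping protons. Its catalytic core is encoded by mitochondrial DNA, and a set of small subunits encoded in the nucleus surrounds that core. Cox4i1 is the common isoform of subunit IV, to which regulatory nucleotides bind. Cox5b is a zinc-binding subunit on the matrix side. Cox6a2 is the isoform of subunit VIa found in heart and skeletal muscle, and Cox8a is the widely expressed isoform of the small subunit VIII. Tfam binds, packages and helps to transcribe mitochondrial DNA, and so bears on the core subunits. Slow oxidative muscle such as the soleus is rich in mitochondria. The nuclear respiratory factors NRF-1 and NRF-2 (an ETS factor also called GABP) are known regulators of genes of this kind.

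Promoter sequences show where such factors could bind, and those of Cox5b and Cox8a are shown because the signals of these genes kept an almost constant ratio on 4 of the 6 arrays, as given further on. Of the 5 genes, 3 (Cox5b, Cox8a and Tfam) matched a promoter in the RefSeq table of build GRCm38.p6. Each printed stretch runs from 100 bases before the annotated start to 10 bases after it, and capitals mark the motifs. Cox5b lies on the + strand (chr1:36691387-36691496) and Cox8a on the − strand (chr19:7217607-7217716).
Cox5b: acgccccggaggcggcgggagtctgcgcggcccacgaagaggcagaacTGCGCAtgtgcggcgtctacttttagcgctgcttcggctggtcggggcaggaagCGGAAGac
Cox8a: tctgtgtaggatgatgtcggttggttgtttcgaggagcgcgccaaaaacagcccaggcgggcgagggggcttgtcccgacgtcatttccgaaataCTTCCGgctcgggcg

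The letters searched on both strands were CGGAAG, the core of an ETS or NRF-2 site, whose reverse complement is CTTCCG, and TGCGCA, the core of an NRF-1 site. The 2 motifs cannot overlap each other. Over 250 bases before and 50 after the start, CGGAAG occurred 2 times for Cox5b, 2 times for Cox8a and once for Tfam, and in 16.9% of 32851 windows of that length it occurred at least once. It occurred 2 or more times in 4.15% of windows. TGCGCA occurred in the Cox5b window alone of these 3, and in 7.76% of all windows. The matches nearest the start lay at positions 3 to 8 for Cox5b and −5 to 1 for Cox8a, counted from 1 at the annotated start. That of Tfam lay at −46 to −41. These matches are letters in a window and were not tested as binding sites. A link between them and the ratio of the signals was not tested either.

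The range above background differed between arrays. Intensities are relative values: without 1O, a probe for 28S ribosomal RNA, and the unnamed 1M, both left out, those of each array sum to about 1. The lowest intensity ran from 0.0006 on array 6 to 0.003 on arrays 1 and 2, and is subtracted below to give a net intensity. Net intensity made up 33.4% of the sum on arrays 1 and 2 alike, 60.1% on array 3 and 73.4% to 86.7% on arrays 4 to 6. On arrays 1 and 2, probes 1M and 1O together gave 41.3 and 40.5, against 0.876 to 3.21 on arrays 3 to 6, and results are therefore also given for arrays 3 to 6 alone. The part of the bright spots in the low range of arrays 1 and 2, or in the signals of probes near them, was not tested. The probe of the deleted gene, Tnc, read 4.07 and 4.50 times the lowest intensity on arrays 1 and 2 and 1.11 to 2.78 times on arrays 3 to 6. Whether that probe overlaps the deleted part is unknown here, so it does not check the genotype. In the muscle fibre marker list, 8 of 8 probes passed 2 times the lowest intensity throughout arrays 3 to 6, among them Myh7 (slow myosin heavy chain) at 22.7 to 77.0 times and Mb (myoglobin) at 30.3 to 106 times it.

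On no array was any of the 5 members at the lowest intensity, and the same held for 89.1% of the 221 probes. Throughout arrays 3 to 6, 4 of 5 members reached 2 times that intensity, against 13.6% of all probes. The members that did so were the 4 oxidase subunits; Tfam did not on any array. With the 5th percentile of each array as the background in place of its lowest intensity, 3 members did, since Cox8a fell short on array 3. On all 6 arrays at once 0 of 5 members reached that level, and 2.26% of all probes did. The median probe read 1.5 times the lowest on arrays 3 to 6, and the median member 14.6 times. On arrays 3 to 6 the subunits were thus among the brighter probes of this muscle, and Tfam was not. On arrays 1 and 2, 120 and 64 of the 221 probes were brighter than Cox8a.

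Cox6a2, the muscle isoform, gave the brightest signal of the members on every array. Its intensity was 0.0057, 0.0073, 0.0384, 0.0492, 0.0377 and 0.0425 on arrays 1 to 6. These values were 1.90, 2.43, 21.3, 54.7, 31.4 and 70.8 times the array's lowest. Arrays 3 to 6 were high and arrays 1 and 2 low, with no overlap. In times the lowest, the 8 muscle fibre marker probes split in the same way, so the split is not particular to Cox6a2. Its share over all 221 probes was not counted. On arrays 3 to 6 between 3 and 5 of the 221 probes were brighter than Cox6a2, and on arrays 1 and 2 this number was 20 and 12. Its net intensity was 5.49 ± 0.674% of all net signal on arrays 3 to 6 (SD, n = 4).

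Cox4i1 gave 0.0051, 0.0046, 0.0137, 0.0143, 0.0160 and 0.0154 on arrays 1 to 6, or 1.70, 1.53, 7.61, 15.9, 13.3 and 25.7 times the lowest. The deposited intensity was almost level on arrays 3 to 6. There its SD was 0.10 on the log2 scale (n = 4), against a median of 0.52 over 200 measured probes, and 1 of these probes had a smaller SD. Dim probes follow the array's lowest intensity, which itself differed 3-fold over these arrays, so the median SD is no measure of biological spread. In net terms Cox4i1 held 1.85 ± 0.179% of the signal on arrays 3 to 6 (SD, n = 4).

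Cox5b gave 0.0046, 0.0049, 0.0091, 0.0169, 0.0176 and 0.0185, or 1.53, 1.63, 5.06, 18.8, 14.7 and 30.8 times the lowest. Arrays 4 to 6 lay close together, and array 3 lay between them and arrays 1 and 2. It held 1.88 ± 0.454% of the net signal on arrays 3 to 6 (SD, n = 4), a mean like that of Cox4i1 with a wider spread.

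Cox8a was the dimmest subunit. It gave 0.0035, 0.0040, 0.0036, 0.0052, 0.0057 and 0.0057, or 1.17, 1.33, 2.0, 5.78, 4.75 and 9.50 times the lowest. Array 3 was exactly at the limit of 2 times, and its intensity there lay within the range of arrays 1 and 2. Rounding to 4 decimals amounts to 5.56% of its net intensity on array 3 and to at most 2.33% on arrays 4 to 6. It held 0.510 ± 0.144% of the net signal on arrays 3 to 6 (SD, n = 4).

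**Figure D1:**
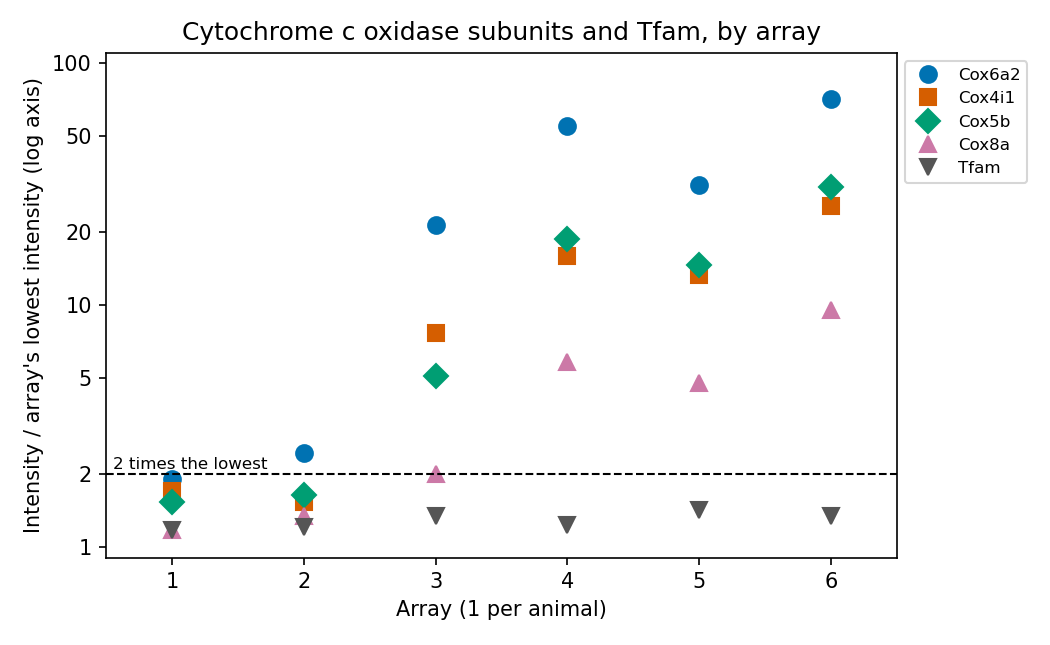
Intensity over the array's lowest intensity (log axis) for each member on each of 6 arrays, 1 point per probe and array, with a dashed line at 2 times the lowest. Cox6a2 is highest on every array, from 1.90 on array 1 to 70.8 on array 6, while Tfam stays between 1.17 and 1.42.

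Tfam gave 0.0035, 0.0036, 0.0024, 0.0011, 0.0017 and 0.0008 on arrays 1 to 6. Read against the lowest intensity these values were nearly level, at 1.17, 1.20, 1.33, 1.22, 1.42 and 1.33 times it. The excess over the lowest was 5, 6, 6, 2, 5 and 2 units of the last decimal. Rounding alone is therefore up to 50.0% of the net value, and no spread between animals can be read from it. Between 77 and 166 of the 221 probes were brighter. On array 1 Tfam and Cox8a had the same intensity, and on the other 5 arrays Cox8a was brighter. A transcript level near or below the background of this array is not distinguished from absence.

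Levels of different genes cannot be read from these probes, because probes differ in brightness for the same amount of RNA and no lengths are given. The order of the signals, and how far a ratio moves from array to array, can be described. In mean log2 intensity over the 6 arrays the order was Cox6a2 (−5.48 ± 1.40), Cox4i1 (−6.61 ± 0.84), Cox5b (−6.61 ± 0.93), Cox8a (−7.79 ± 0.33) and Tfam (−9.05 ± 0.89; SD, n = 6 each). Cox6a2 exceeded Cox4i1 within the array by 1.13 ± 0.61 and Cox5b by 1.13 ± 0.64 (log2, SD, n = 6), with the same sign on 6 of 6 arrays. Cox4i1 and Cox5b, neighbours in this order, did not differ beyond their spread: the difference was 0.00081 ± 0.32, positive on 2 arrays and negative on 4. Cox5b exceeded Cox8a by 1.18 ± 0.66 on 6 of 6 arrays. Tfam was too close to the floor for a difference to be given. No test was run on these pairs.

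Net intensities give the ratios without the shared floor. The ratio of Cox5b to Cox8a was 4.06, 3.72, 3.64 and 3.51 on arrays 3 to 6. Rounding allows 3.79 to 4.35 on array 3 and 3.42 to 3.60 on array 6. On the log2 scale the SD of this ratio was 0.09 (n = 4), the smallest of the 6 subunit pairs, and 0.04 without array 3. On arrays 1 and 2 the ratio was 3.20 and 1.90, with rounding limits of 2.50 to 4.25 and 1.64 to 2.22.

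Cox4i1 did not keep step with Cox5b on array 3. Its net ratio to Cox5b was 1.63 there, with rounding limits of 1.59 to 1.67, and 0.838, 0.902 and 0.827 on arrays 4 to 6. The SD of this log2 ratio was 0.47 over arrays 3 to 6 and 0.07 without array 3. The ratio of Cox6a2 to Cox5b was likewise highest on array 3, at 5.01, against 3.02, 2.23 and 2.34 on arrays 4 to 6. Its SD was 0.54 with array 3 and 0.24 without it. The ratio of Cox6a2 to Cox8a was 20.3 on array 3 and 11.2, 8.11 and 8.22 on arrays 4 to 6, with an SD of 0.62 on the log2 scale and 0.27 without array 3.

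The ratio of Cox4i1 to Cox8a was 6.61 on array 3 and 3.12, 3.29 and 2.90 on arrays 4 to 6, with an SD of 0.55 on the log2 scale and 0.09 without array 3. Cox6a2 and Cox4i1 had a net ratio of 3.08, 3.60, 2.47 and 2.83 on arrays 3 to 6, an SD of 0.23 on the log2 scale (n = 4), and 0.28 without array 3. With array 3 this was the second smallest SD of the 6 pairs, and without it the largest. The ratio of Cox5b to Cox8a had the smallest SD either way, and the order of the other pairs rests on array 3. These pairs were picked out after their values were seen. With 1 array per animal, an animal that differs and an array that differs cannot be told apart. In bulk RNA, fewer fibres of a type and less RNA per fibre cannot be told apart either.

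**Figure D2:**
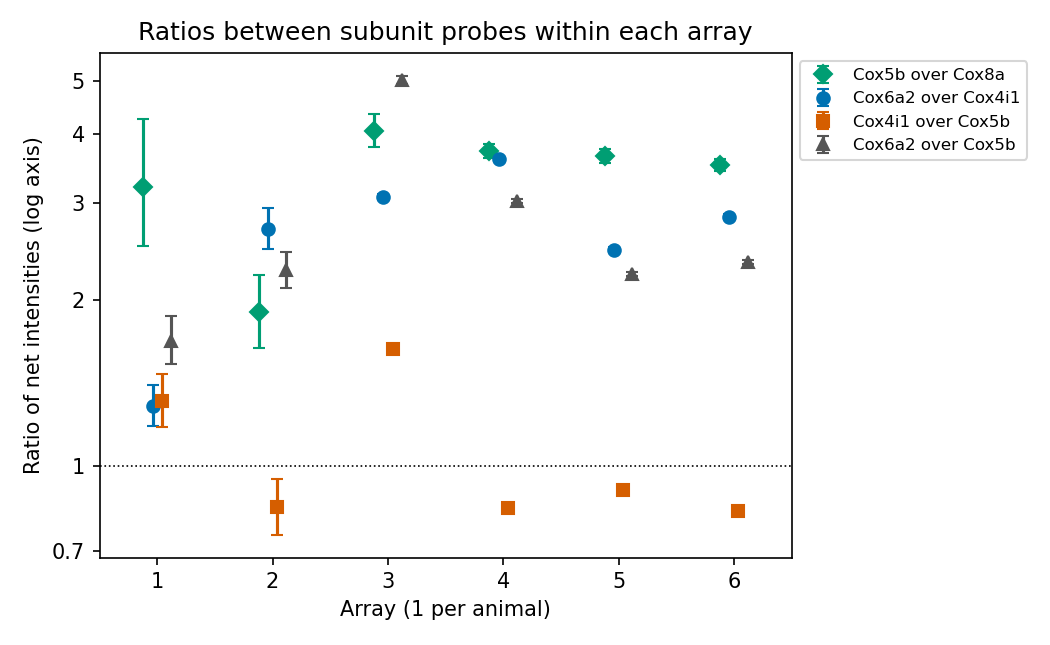
Ratio of net intensities (log axis) for 4 pairs of subunit probes on each array, with bars for the limits that rounding to 4 decimals allows. Cox5b over Cox8a stays between 3.51 and 4.06 on arrays 3 to 6, while Cox4i1 over Cox5b is 1.63 on array 3 and below 1 on arrays 4 to 6.

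The 4 subunits together held a steady part of the signal on arrays 3 to 6. Their summed net intensity was 9.59%, 10.3%, 9.85% and 9.20% of all net signal there, a mean of 9.72 ± 0.445% (SD, n = 4). On arrays 1 and 2 it was 2.08% and 2.64%, which lowered the mean over 6 arrays to 7.27 ± 3.82% (SD, n = 6). The 8 muscle fibre markers moved the same way, from 5.89% and 6.31% on arrays 1 and 2 to between 22.3% and 35.1% on arrays 3 to 6. The 5 endothelial markers summed to between 0.350% and 1.90%, highest on arrays 1 and 2, where all 5 lay under 2 times the lowest intensity. Of these, Cdh5 and Pecam1 (junction proteins of endothelial cells) passed that limit on arrays 5 and 6, at 3.75 and 5.33 and at 4.58 and 4.33 times the lowest. Fabp4, the 1 adipocyte marker with a probe, held between 0.060% and 1.05%, with the highest value on array 5. Pdgfra, the 1 fibroblast marker, held between 0.046% and 0.811%. The leukocyte, erythrocyte, nerve and brown adipocyte lists had 0 probes. The part of other cell types in the subunits' signals was not tested.

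Within the sum of the 4 subunits, Cox6a2 held 56.4 ± 5.95%, Cox5b 19.3 ± 4.68%, Cox4i1 19.0 ± 2.02% and Cox8a 5.25 ± 1.51% on arrays 3 to 6 (SD, n = 4 each). Cox6a2 ranged from 39.1% on array 1 to 63.5% on array 3. Cox4i1 was highest on array 1, at 30.4%, and lay between 16.3% and 20.7% elsewhere. Cox5b was lowest on array 3, at 12.7%, and lay between 19.5% and 23.2% elsewhere. Cox8a was lowest on array 3 as well, at 3.13%, and highest on array 2, at 11.4%. Its net value on arrays 1 and 2 was 5 and 10 units of the last decimal, so rounding weighs on its part there.

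**Figure D3:**
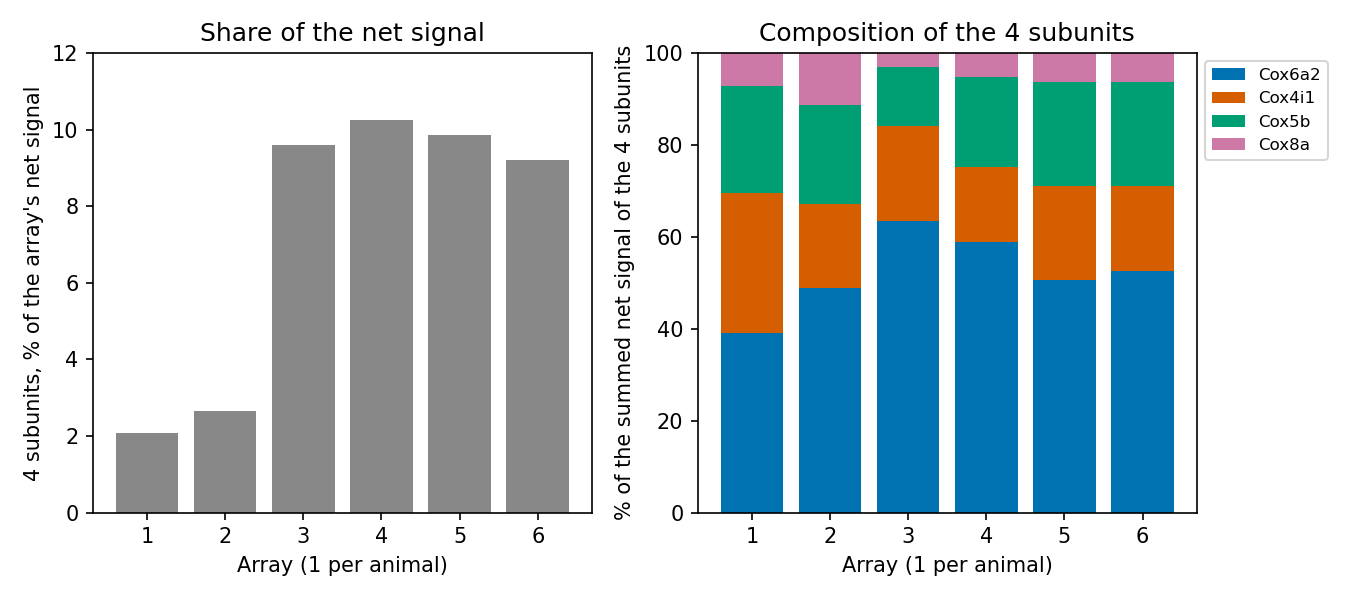
Left, the summed net intensity of the 4 subunits as a percentage of all net signal on each array. Right, the percentage of that sum from each subunit. The sum is 9.20% to 10.3% of the signal on arrays 3 to 6 and 2.08% and 2.64% on arrays 1 and 2, and Cox6a2 is the largest portion on every array.

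The spread of each member between arrays was set against that of other probes as bright. The variance test of limma was fitted over 197 probes with Benjamini-Hochberg adjustment. At an adjusted p under 0.05, 0 of 5 members were called as varying more than the fitted trend, while 2.03% of all probes were (4 probes). The called probes were Top1 (5M), Tnc (4L), Dgat1 (4N) and Fgfr3 (3J), all close by identifier to the bright spot 1M. The part of that spot in their spread was not tested. No member had an unadjusted p under 0.05, against 14 of the 197 probes. Cox6a2 had the largest SD of the members, 1.40 on the log2 scale (n = 6), where the trend gave 1.45 (limma adjusted p = 0.874). Cox8a had the smallest, 0.33, where the trend gave 0.71 (limma adjusted p = 0.998). Cox4i1, Cox5b and Tfam had SDs of 0.84, 0.93 and 0.89 (limma adjusted p = 0.874 for each), and the median over all measured probes was 0.83. Tfam lay near the lowest intensity on every array, so its SD follows that floor and its test tells nothing on spread between animals. Of the 197 probes, 187 had a larger SD than Cox8a, and 7 had a larger SD than Cox6a2. After each array was centred on its median, the SD was 2.07 for Cox6a2, 1.63 for Cox5b, 1.51 for Cox4i1 and 1.00 for Cox8a. That of Tfam was 0.21, where the median over the probes was 0.29. Counted from the largest centred SD, these subunits stood at places 5, 13, 16 and 26 of 197, and Tfam at place 144. The gap between arrays 1 and 2 and arrays 3 to 6 is part of these SDs. A p above the threshold does not show that the members were constant.

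**Figure D4:**
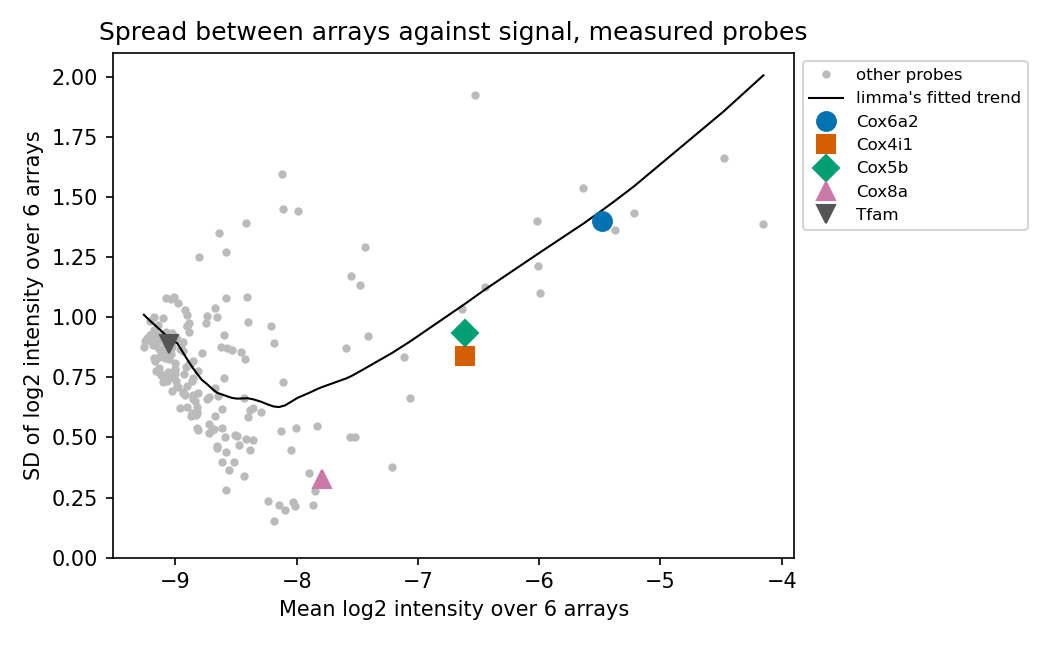
SD against mean of log2 intensity over 6 arrays for 197 measured probes, with the members in colour and limma's fitted trend as a line. Cox6a2 lies at 1.40 near the trend, and Cox8a at 0.33 lies below it.

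Probes most like each member were found by the SD over 6 arrays of the difference in log2 intensity, among 184 other named probes. For Cox4i1 these were Ldhb (a lactate dehydrogenase subunit, 0.17), Cox5b (0.32) and Car3 (a carbonic anhydrase of slow fibres, 0.33). For Cox5b they were Ttn (titin, 0.24), Ldhb (0.25) and Cox4i1 (0.32). The 3 nearest to Cox6a2 were bright probes, Aldoa (aldolase, 0.26), Myh7 (slow myosin heavy chain, 0.27) and Mb (myoglobin, 0.28). For Cox8a they were Slc2a4 (the insulin-responsive glucose transporter, 0.23), Pdha1 (a pyruvate dehydrogenase subunit, 0.24) and Cd36 (a fatty acid transporter, 0.29). Those of Tfam were Lipe (0.05), Junb (0.06) and Csk (0.07), while the oxidase subunits stood at places 161 to 180 of 184. The floor is part of every intensity here, so dim probes are alike on this scale by construction.

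With net values on arrays 3 to 6, where 28 other named probes could be compared, the nearest were different. Cox5b and Cox8a were each other's nearest (0.09), followed for both by Gapdh (a glycolytic enzyme, 0.16 and 0.12) and Myh4 (a fast myosin heavy chain, 0.24 and 0.26). Nearest to Cox4i1 were Pdha1 (0.13), Hadh (an enzyme of beta-oxidation, 0.16) and Lpl (a lipase, 0.17), with Cox6a2 at place 5 (0.23). Nearest to Cox6a2 were the muscle transcription factor Myf6 (0.20), Cox4i1 (0.23) and Pdha1 (0.23). Each of these SDs rests on 4 arrays. For Cox4i1 the median over the 28 probes was 0.46, and for Cox8a it was 0.65.

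Other genes of the pathway were few on the array. The respiratory chain list matched 4 probes, all of them the oxidase subunits above, so no subunit encoded by mitochondrial DNA and none of another complex was measured. Both probes of the pyruvate and Krebs cycle list passed 2 times the lowest throughout arrays 3 to 6, against 13.6% of all probes. They were Pdha1 and Mdh2 (mitochondrial malate dehydrogenase). Pdha1 gave 2.61, 5.33, 4.25 and 8.33 times the lowest on arrays 3 to 6 and Mdh2 3.61, 4.11, 3.92 and 6.83 times. Both were dim on arrays 1 and 2, at 1.10 to 1.17 times. Related probes outside the list were dim as well. Pcx (pyruvate carboxylase) gave 1.11 to 1.33 times on arrays 3 to 6. Pdha2 (another pyruvate dehydrogenase subunit) had a mean log2 intensity of −9.23 over 6 arrays, below that of Tfam. Cyct, a cytochrome c gene that the respiratory chain list did not match, had a mean of −8.89. Of 4 probes for mitochondrial regulators, 0 passed 2 times the lowest throughout arrays 3 to 6. Ppara, a nuclear receptor that controls fatty acid oxidation, gave 1.22, 1.56, 2.08 and 1.83 times, and its relative Pparg, best known from adipocytes, stayed between 1.06 and 1.33 times. Ucp3, the uncoupling protein of skeletal muscle mitochondria, gave 5.93 and 6.07 times on arrays 1 and 2. On arrays 3 to 6 it gave 1.72, 5.11, 2.42 and 4.67 times. Its probe is 3O, close by identifier to the bright spot 1O. The part of that spot in its signal was not tested. The median probe of the regulators thus read 1.51 times the lowest on arrays 3 to 6, like the median of 1.5 over all probes.

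Bright spots lie next to some members in the grid read from probe identifiers (number as row, letter as column, an assumption). Mb touches Cox4i1 and Cox5b diagonally, and Des (desmin) touches Cox8a. Not touching but next in the column of Cox8a (17L) are Gapdh (19L) and Cox6a2 (15L). Gapdh was brighter than Mb, with mean log2 intensities of −4.48 and −5.22 over 6 arrays. Cox5b (11O) is likewise next to Cox4i1 (9O). Mb read 30.3, 50.3, 34.4 and 106 times the lowest on arrays 3 to 6, and Des 37.9, 50.0, 18.3 and 53.2 times. The net log2 difference from Des had an SD of 1.33 for Cox8a, and that from Mb an SD of 0.70 for Cox5b and 0.33 for Cox4i1 (n = 4 each). For the probes next in the column, the SD for Cox8a was 0.12 from Gapdh and 0.62 from Cox6a2. Between Cox5b and Cox4i1 it was 0.47 (n = 4 each). The part of these neighbours in the members' signals was not tested.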

How the data were processed

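Per the labels' protocols, 4 µg of total RNA was labelled with a radioactive nucleotide during reverse transcription with gene-specific primers. The authors deposited linear intensities, 1 for each of 223 probes on each of 6 arrays. The sources used here do not say how images, background and scaling were handled. The sums of about 1 per array were read from the values. Arrays are numbered in the order of the sample records.

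Gene symbols came from the platform annotation and were matched through Entrez identifiers to a RefSeq table of GRCm38.p6. Probes 1M and 1O were left out, leaving 221. Net intensity is the intensity minus the array's lowest. A probe above the lowest on all 6 arrays counted as measured, and log2 intensities were used without further scaling. Variances were tested with limma 3.58.1 (squeezeVar, robust trended prior, upper-tail F test, adjusted p threshold 0.05) in R 4.3.3, after the procedure was tested on simulated data; other values were computed in Python 3.11.15. The precision is limited by the number of arrays and by 4 decimals. The alternatives were other normalizations, backgrounds, thresholds, filters and priors, a pseudocount of 0.0006, arrays 3 to 6 alone and leaving out each array.

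Named genes are the 5 members, for each the 3 nearest named probes, the genes of the 3 pathway lists, Tnc and the muscle markers. Gapdh, Myh4, Hadh, Lpl and Myf6 are the nearest under net values, and Pcx, Pdha2 and Cyct are related genes outside the lists. Top1, Dgat1 and Fgfr3 are named because the variance test called them. The members and lists were chosen with earlier results of these data known. The promoter motifs, the subtraction of the 5th percentile and leaving out arrays from net ratios were chosen after seeing the data.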

Additional observations from a re-analysis of the deposited data

Results flagged for a closer look

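Among 20 sets of 6 values examined (log2 intensities, within-array differences and shares), 2 had an array far from the other 5. The sets are built from the same values and are not independent, so no number expected by chance is given. Cox4i1 held 30.4% of the summed net signal of the 4 subunits on array 1, and the nearest other array gave 20.7%. The net intensity of Cox4i1 on array 1 was 21 units of the last decimal. Cox5b held 12.7% of that sum on array 3, and the nearest other array gave 19.5%. Both are shares of 1 sum, so they are not independent of the other subunits' shares.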

How the results depend on the processing

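On arrays 3 to 6, 4 subunits reached 1.5 and 2 times the lowest, 3 reached 3 times it, 3 reached 2 times the 5th percentile, and 0 reached 2 times the lowest on all 6 arrays, where arrays 1 and 2 have little range. Of 72 alternative values for subunit pairs, 68 moved by less than 1 SD of the difference over all 6 arrays. That SD includes the gap between arrays 1 and 2 and arrays 3 to 6, so it is a wide limit. Within it, Cox6a2 over Cox8a (SD 1.21) went from 2.31 to as much as 3.51. The sign changed in 4 of the 12 settings for Cox4i1 over Cox5b, whose difference is near 0 (−0.12 to 0.05), and in 0 for the other 5 pairs. The 4 values that moved by more than 1 SD concern Cox8a on net scales of arrays 3 to 6. Cox4i1 over Cox8a became 1.90 with the lowest and 1.93 with the 5th percentile subtracted (1.18 before). Cox5b over Cox8a became 1.90 and 1.93 (1.18 before). These settings both subtract and leave out arrays 1 and 2; with those arrays left out alone the pairs gave 1.58 and 1.59, and with subtraction alone 1.73 and 1.70. The nearest probes depended on the scale. Net values kept 0 of 3 for Cox4i1, Cox5b, Cox6a2 and Cox8a, and could not be had for Tfam; quantile normalization kept 1 for Cox4i1, 0 for Cox5b, 0 for Cox6a2, 1 for Cox8a and 2 for Tfam; the cause was not tested. Without 1 array the share of net signal ran from 6.67% to 8.31%. In limma's variance test 0 members passed in any of 16 settings, 2 of which tested 4 members, without Tfam (adjusted p from 0.833 to 0.999). No paired analysis was possible because there is 1 group.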
